A study of Homo sapiens with 18 samples.

Results

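Keratins are the intermediate filament proteins of epithelial cells. Each filament is built from pairs of an acidic type I and a basic type II keratin, so a cell makes members of both types together, and the set it makes marks its kind. Simple epithelia such as the pancreatic duct make KRT8 with KRT18, together with KRT7 and KRT19, whereas the basal layer of stratified epithelia makes KRT5 and KRT15, and wounded or activated epidermis adds KRT6A, KRT16 and KRT17. The 10 keratin genes followed here, of 63677 gene identifiers in the count tables, were the type II genes KRT6A, KRT7, KRT8, KRT80 and KRT81 and the type I genes KRT15, KRT16, KRT17, KRT18 and KRT19. KRT80 was selected on its measured CPM in these same libraries, picked for its lower level with KMT2D siRNA, so its values in that contrast are given as a description without a test. The other 9 were chosen as genes of epithelial and basal identity. All 10 symbols matched 1 Ensembl identifier each, and all 10 passed the filter on low counts through at least 1 line. KRT6A, KRT16 and KRT17 passed through COLO357, the line in which they were high.

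The study silenced KMT2C and KMT2D, which encode histone methyltransferases that act at enhancers, in 3 established human lines of pancreatic ductal adenocarcinoma. The line PANC1 was established from a primary tumour of the pancreas, and SUIT2 and COLO357 were established from metastases. In each line there were 3 libraries with KMT2C siRNA (siRNA1, siRNA2 and siRNA3), 2 with KMT2D siRNA (siRNA1 and siRNA2) and 1 with control siRNA, 18 in all, each from total RNA of cells transfected for 48 h. Libraries that share a target differ in siRNA, each line has a single control library, and the labels name no separate cultures behind them. The p-values rest on the spread from library to library, which may be technical.

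The libraries held between 14205640 and 32115894 reads assigned to genes, and levels are given as CPM, reads of the gene scaled to a common total of those reads. Relative to its own control library, KMT2D mRNA stood at 34.9% to 63.0% in the KMT2D siRNA libraries of SUIT2 and COLO357 but at 83.6% and 85.2% in those of PANC1. KMT2C mRNA stood at 42.5% to 86.6% in 8 of the 9 KMT2C siRNA libraries. The PANC1 library labelled KMT2C siRNA2 went against its label, with KMT2C at 122.8% and KMT2D at 394.5% of the control library. In all 4 KMT2C libraries were doubted, that one and the 3 with over 20% of read pairs outside annotated genes (COLO357 siRNA3, SUIT2 siRNA2 and SUIT2 siRNA3), and the members' KMT2C contrasts over the 3 lines are also given without them. The fits by line and by single siRNA include them. With KMT2D siRNA1 and siRNA2, KMT2C mRNA stood at 144.6% and 275.3% of control in PANC1. It stood at 94.6% and 143.3% in SUIT2 and at 94.3% and 98.65% in COLO357. No KMT2D library was put among the doubted ones.

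The 10 proteins share the motif that ends the central rod, a stretch used when filaments assemble, in which threonine, tyrosine and arginine are followed at set spacing by leucine and glutamate. Its coding sequence is printed for the genes whose likeness bears on the results: the partners KRT8 and KRT18, KRT80, and the near-copies whose reads may be hard to separate (KRT81 with KRT86, KRT6A with KRT6B). Each line gives 42 coding bases, 5′ to 3′ on the coding strand, from GENCODE 29 transcripts on GRCh38, all on chromosome 12, with the 7 codons of the motif in capitals.
KRT8: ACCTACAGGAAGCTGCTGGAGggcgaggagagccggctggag
KRT18: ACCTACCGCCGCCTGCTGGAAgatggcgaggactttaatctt
KRT80: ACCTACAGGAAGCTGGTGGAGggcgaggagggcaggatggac
KRT81: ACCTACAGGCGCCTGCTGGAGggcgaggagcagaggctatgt
KRT86: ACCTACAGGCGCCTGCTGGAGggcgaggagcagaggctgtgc
KRT6A: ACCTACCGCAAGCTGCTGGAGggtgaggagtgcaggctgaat
KRT6B: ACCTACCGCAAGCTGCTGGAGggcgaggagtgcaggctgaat

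KRT81 and KRT86 matched at 40 of these 42 bases and KRT6A and KRT6B at 41, whereas KRT8 matched its filament partner KRT18 at 21 and the type II gene KRT80 at 37. Over whole genes, 29.7% of the 100-base words in KRT81 exons also occurred in other genes, and 28.8% of all KRT81 words occurred in KRT86, which overlaps KRT81 on the opposite strand. The share was 13.6% for KRT6A, with words in KRT6C and KRT6B. It was 8.39% for KRT18, all with KRT8, and 5.51% for KRT8, with words in KRT18 and in pseudogenes such as KRT8P3 and KRT8P33. Words were matched on both strands, and KRT8 and KRT18 lie on opposite strands. It was 4.69% for KRT16, 4.26% for KRT7, all with its antisense gene KRT7-AS, and 0.147% for KRT17. No word of KRT15, KRT19 or KRT80 occurred elsewhere. Whether reads were counted by strand is not stated in the labels or headers. The counts of KRT81, KRT7, KRT8 and KRT18 are uncertain to the extent that reads of their opposite-strand neighbours were split with them.

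Keratin levels differed between the 3 lines, and the sum set PANC1 apart while SUIT2 and COLO357 overlapped. Summed over the 10 genes, the level was 815 to 1208 CPM in PANC1 (median 1059), 2542 to 6295 CPM in SUIT2 (median 4632) and 5365 to 6595 CPM in COLO357 (median 5681), 6 libraries each. KRT8, KRT18 and KRT19 were the leading keratins of PANC1 and SUIT2. In COLO357 they were joined by KRT7, KRT81, KRT17 and KRT6A at high level, and KRT80 was low there. These are bulk libraries, in which fewer cells of a type and less RNA per cell cannot be told apart.

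**Figure D1:**
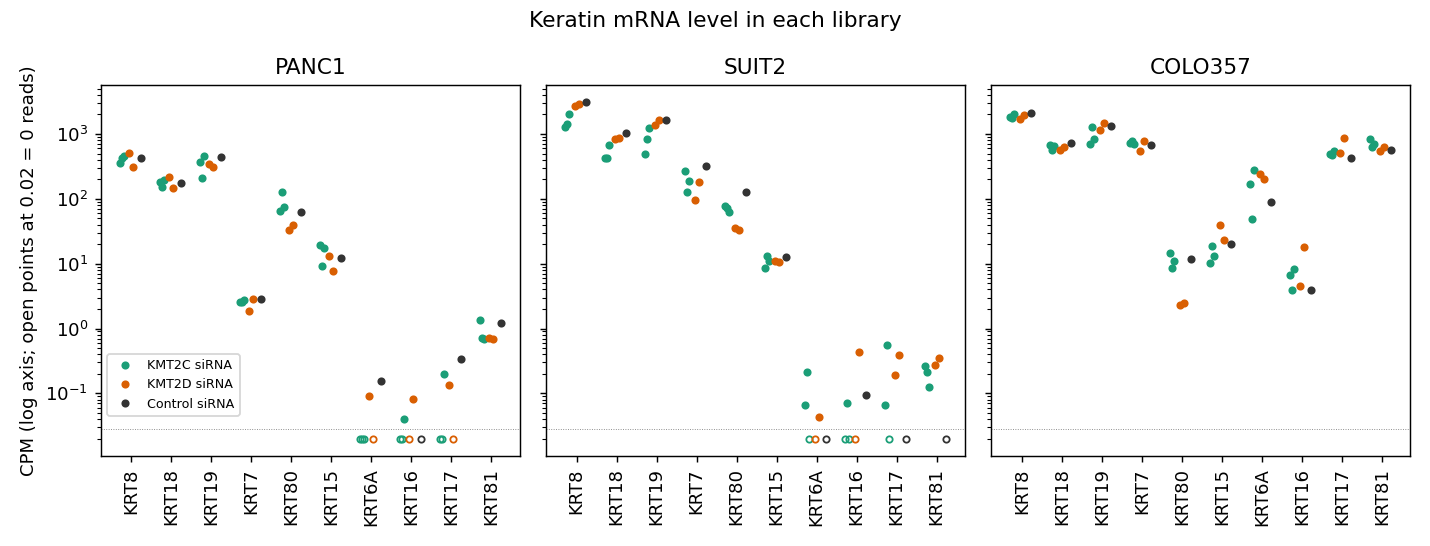
Level of each keratin gene in each library, in CPM on a log axis, 1 panel a line; points are libraries, coloured by siRNA target, and open points at the bottom mark 0 reads. KRT6A, KRT16, KRT17 and KRT81 stay under 1.4 CPM in PANC1 and under 0.6 CPM in SUIT2, and KRT6A, KRT17 and KRT81 exceed 48 CPM in COLO357.

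KRT8 and KRT18, the first keratin pair made in simple epithelia, were highest in SUIT2 and COLO357. KRT8 ranged from 307 to 512 CPM in PANC1 (median 426), from 1269 to 3142 CPM in SUIT2 (median 2354) and from 1714 to 2122 CPM in COLO357 (median 1906). No PANC1 library reached the lowest library of either other line, while SUIT2 and COLO357 overlapped. KRT18 ranged from 149.6 to 218 CPM in PANC1 (median 179.5), from 429.8 to 1027 CPM in SUIT2 (median 761) and from 573 to 722 CPM in COLO357 (median 634), with the same gap between PANC1 and the rest. By edgeR's quasi-likelihood test on all genes, adjusted by Benjamini-Hochberg, KRT8 was lower in PANC1 than in COLO357 by a log2 fold change of -2.15 (SE 0.174, adjusted p = 2.37e-10) and lower than in SUIT2 by -2.32 (SE 0.176, adjusted p = 9.43e-11). KRT18 gave -1.77 (SE 0.166, adjusted p = 2.76e-09) and -1.87 (SE 0.167, adjusted p = 1.65e-09) in the same contrasts. Between SUIT2 and COLO357 no difference passed for either, at 0.18 (SE 0.167, adjusted p = 0.377) for KRT8 and 0.10 (SE 0.162, adjusted p = 0.617) for KRT18.

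KRT19, the type I keratin used as a marker of pancreatic ducts, followed the same order. It ranged from 209.9 to 466 CPM in PANC1 (median 355), from 489 to 1669 CPM in SUIT2 (median 1313) and from 696 to 1492 CPM in COLO357 (median 1229). PANC1 again lay below both other lines without overlap, by -1.59 against COLO357 (SE 0.239, adjusted p = 7.81e-06) and by -1.63 against SUIT2 (SE 0.24, adjusted p = 7.78e-06) in the edgeR test. For SUIT2 against COLO357 the log2 difference was 0.04 (SE 0.233, adjusted p = 0.899).

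KRT7, the type II keratin of ducts and other glandular linings, was graded across the lines. It ranged from 1.89 to 2.87 CPM in PANC1 (median 2.66), from 95.8 to 318 CPM in SUIT2 (median 184) and from 552 to 790.4 CPM in COLO357 (median 716). No 2 lines overlapped. The edgeR log2 fold change was -8.05 for PANC1 against COLO357 (SE 0.268, adjusted p = 1.09e-16), -6.14 for PANC1 against SUIT2 (SE 0.248, adjusted p = 2.68e-15) and -1.91 for SUIT2 against COLO357 (SE 0.201, adjusted p = 3.73e-08).

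KRT6A, KRT16 and KRT17, the keratins of activated epidermis, were at a few reads in PANC1 and SUIT2 and well covered in COLO357. KRT17 had 0 to 11 reads per library in PANC1 and 0 to 9 in SUIT2, against 8549 to 20589 reads in COLO357, or 421 to 860 CPM (median 503). KRT6A had 0 to 5 reads per PANC1 library and 0 to 3 per SUIT2 library, against 48.2 to 274 CPM in COLO357 (median 187). KRT16, a filament partner of KRT6A, had 3 reads in all PANC1 libraries together and 13 in all SUIT2 libraries, 10 of them with KMT2D siRNA2, against 3.86 to 18 CPM in COLO357 (median 5.59). These are given here as levels, with no test or fold change between lines, since the genes passed the filter on low counts through COLO357 and the low side rests on a handful of reads.

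KRT81 encodes a hair keratin, made in the hair cortex. It ranged from 0.684 to 1.33 CPM in PANC1 (median 0.721) and from 0 to 0.348 CPM in SUIT2 (median 0.237), against 556 to 842 CPM in COLO357 (median 629). PANC1 libraries had 13 to 39 reads each and SUIT2 libraries 0 to 8, and the 2 lines did not overlap in CPM. KRT81 was lower in PANC1 than in COLO357 by -9.42 (SE 0.278, adjusted p = 1.37e-17) by edgeR. Its contrasts with SUIT2 are given as levels, with no test, since the gene passed the filter on low counts through the other lines. KRT86, its near-copy, was at 0.494 to 1.67 CPM in PANC1 (11 to 30 reads per library, near the reads of KRT81), 0 to 0.218 CPM in SUIT2 (0 to 5 reads) and 2.78 to 11.1 CPM in COLO357. It lay far under KRT81 in COLO357, and in PANC1 and SUIT2 the KRT81 counts are uncertain to the extent that reads of this pair were split.

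KRT15, a type I keratin of basal keratinocytes, was the one member whose levels overlapped between every pair of lines. It ranged from 7.65 to 19.5 CPM in PANC1 (median 12.7), from 8.71 to 13.1 CPM in SUIT2 (median 10.9) and from 10.1 to 38.9 CPM in COLO357 (median 19.5). It was lower in SUIT2 than in COLO357 by -0.88 (SE 0.273, adjusted p = 0.00864). PANC1 against COLO357 missed the threshold in edgeR at -0.54 (SE 0.273, adjusted p = 0.0865) and passed in DESeq2 at -0.60 (adjusted p = 0.0444). It also passed in edgeR, with adjusted p = 0.0230 to 0.0468, when PANC1 KMT2C siRNA1 or siRNA3, or COLO357 KMT2C siRNA1 or siRNA3, was left out.

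KRT80 was the only member called higher in PANC1 and in SUIT2 than in COLO357. This type II keratin, found near desmosomes and in differentiating epithelia, ranged from 33.3 to 125.5 CPM in PANC1 (median 63.1), from 32.9 to 126.7 CPM in SUIT2 (median 67.5) and from 2.27 to 14.4 CPM in COLO357 (median 9.85). All 12 PANC1 and SUIT2 libraries were above the highest COLO357 library. In edgeR it was higher in PANC1 than in COLO357 by 3.20 (SE 0.232, adjusted p = 4.94e-11) and higher in SUIT2 than in COLO357 by 3.12 (SE 0.231, adjusted p = 1.14e-10). PANC1 against SUIT2 gave 0.08 (SE 0.21, adjusted p = 0.753).

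Counted by contrast, PANC1 against COLO357 called 1 of 10 higher and 8 lower, where 32.1% of all 21028 tested genes were higher and 34.7% lower. For SUIT2 against COLO357, 1 was higher and 6 lower, against 28.8% and 30.9% of all genes. For PANC1 against SUIT2, 1 was higher (KRT81) and 4 lower (KRT7, KRT8, KRT18 and KRT19), against 29.8% and 29.5%. KRT6A, KRT16 and KRT17 are among the lower ones in both contrasts with COLO357, the line through which they passed the filter, so their part of these counts is fixed by it. KRT81 is likewise counted in both contrasts with SUIT2, where it had 0 to 8 reads per library and passed the filter through the other lines. The members were chosen as identity genes, so these counts describe them and do not set them apart from other genes.

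To compare genes with each other, levels were divided by the length of the merged exons of each gene (CPM per kb). On that scale KRT19 led in every line, with medians of 152 CPM per kb in PANC1, 562 in SUIT2 and 526 in COLO357. KRT8 and KRT18 followed in PANC1, at 61.9 and 55.8 CPM per kb, with overlapping ranges, and in SUIT2, at 342 and 236.5, where KRT19 also overlapped KRT8. In COLO357 the second place was KRT81, at 326 CPM per kb, whose range overlapped those of KRT19 above and KRT8 below (277), ahead of KRT18, KRT7 and KRT17 at 197, 175 and 161, which overlapped one by one. KRT80 had rank 4 in PANC1 at 14.5 CPM per kb, rank 5 in SUIT2 at 15.5 and rank 9 in COLO357 at 2.26. The merged exons of KRT8 and KRT15 are long because of minor isoforms, at 6.88 and 7.07 kb. Per kb of coding length, an alternative added after the data were seen, KRT8 led in SUIT2 with a median share of 45.2% of the 10 genes' signal and in COLO357 with 29.9%, while KRT19 led in PANC1 with 41.5%.

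**Figure D2:**
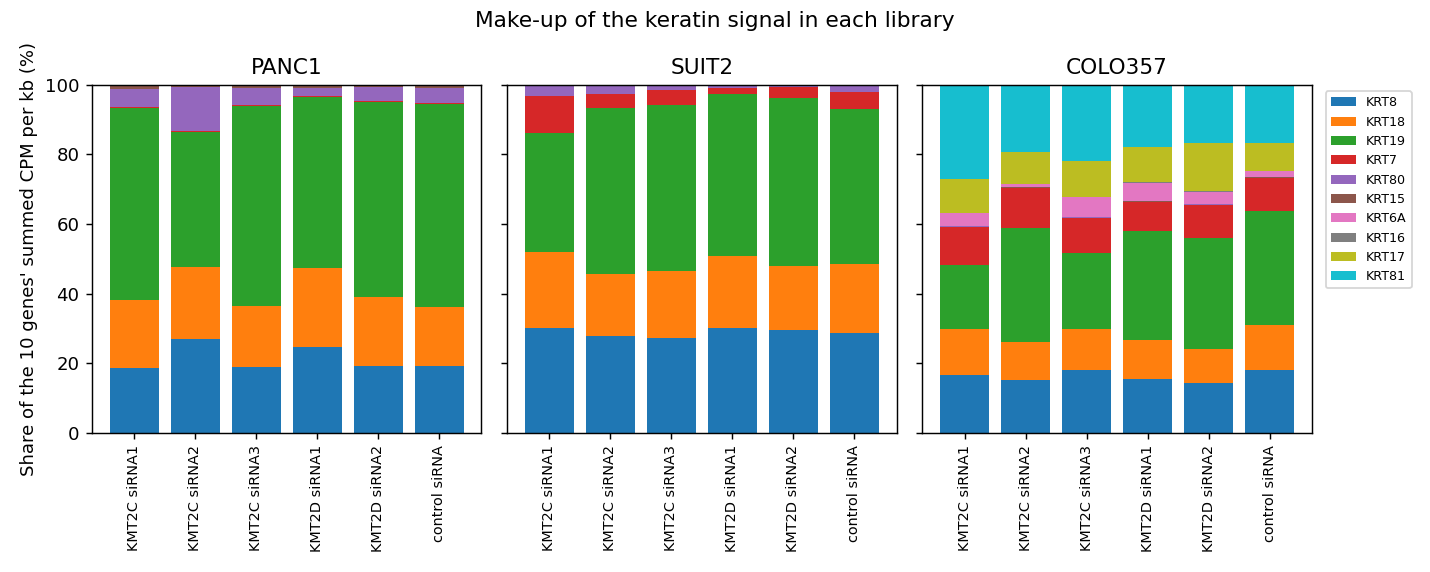
Share of each gene in the summed CPM per kb of the 10 keratin genes, in percent, 1 bar a library. KRT19, KRT8 and KRT18 fill most of each PANC1 and SUIT2 bar, while KRT81, KRT17, KRT7 and KRT6A take visible shares of each COLO357 bar (median shares 18.6%, 9.95%, 9.85% and 3.54%).

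In these shares KRT80 made up 2.55% to 12.5% of the signal in PANC1 (median 4.64%), 0.523% to 2.93% in SUIT2 (median 1.57%) and 0.0289% to 0.204% in COLO357 (median 0.136%). The highest share was in the PANC1 library labelled KMT2C siRNA2. The ratio of type II to type I signal over the 10 genes had a median of 0.319 in PANC1 (range 0.306 to 0.661), 0.507 in SUIT2 (range 0.485 to 0.776) and 0.890 in COLO357 (range 0.782 to 1.40). Per kb of coding length the medians were 0.634, 1.03 and 1.14, so the size of the ratio depends on the length used, and the order of the line medians was the same on both scales. KRT5, a type II keratin outside the 10, is in none of these ranks, shares or ratios. Its median per kb of merged exons was 323 CPM in COLO357, against 0.0565 CPM in PANC1 and 0.0966 CPM in SUIT2.

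KRT80 with KMT2D siRNA, the contrast it was picked for, was lower than the control library in 6 of 6 libraries. In PANC1 it had 33.3 and 40.1 CPM with KMT2D siRNA1 and siRNA2, against 61.9 CPM in the control library. In SUIT2 it had 36.1 and 32.9 CPM with KMT2D siRNA, against 126.7 CPM in the control library. In COLO357 it had 2.27 and 2.51 CPM with KMT2D siRNA, against 11.8 CPM in the control library. These are 53.8% and 64.8% of control in PANC1, 28.5% and 26.0% in SUIT2, and 19.2% and 21.2% in COLO357.

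The KMT2C siRNA libraries are set against the same 3 control libraries that entered the choice of KRT80, so this contrast is not independent of it. PANC1 had 64.4, 125.5 and 73.6 CPM with KMT2C siRNA1, siRNA2 and siRNA3, against 61.9 CPM in the control library, above it in 3 of 3. SUIT2 had 78.0, 71.9 and 63.2 CPM with KMT2C siRNA, against 126.7 CPM in the control library, below it in 3 of 3. COLO357 had 14.4, 8.58 and 11.1 CPM with KMT2C siRNA, against 11.8 CPM in the control library, on both sides. Over the lines the edgeR log2 difference was -0.21 (SE 0.243, adjusted p = 0.85). It was 0.06 (adjusted p = 0.982) without the SUIT2 control library and -0.20 (adjusted p = 0.949) without the 4 doubted libraries. The PANC1 KMT2C siRNA2 library, with the highest KRT80 of that line, was also the one with KMT2D mRNA at 102 CPM, against 25.9 CPM in the PANC1 control library. The SUIT2 KMT2C siRNA2 library had KMT2D at 161.8% and KRT80 at 56.7% of control, and the COLO357 KMT2C siRNA3 library had KMT2D at 218.9% and KRT80 at 94.2%. Centred within each line, log2 CPM of KRT80 and KMT2D had a Pearson r of 0.378 over the 12 KMT2C and control libraries and of -0.268 over the 11 without PANC1 KMT2C siRNA2. All KMT2C libraries lay above all KMT2D libraries of the same line. KRT80 was picked for its low level in the latter, so this is a description.

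**Figure D3:**
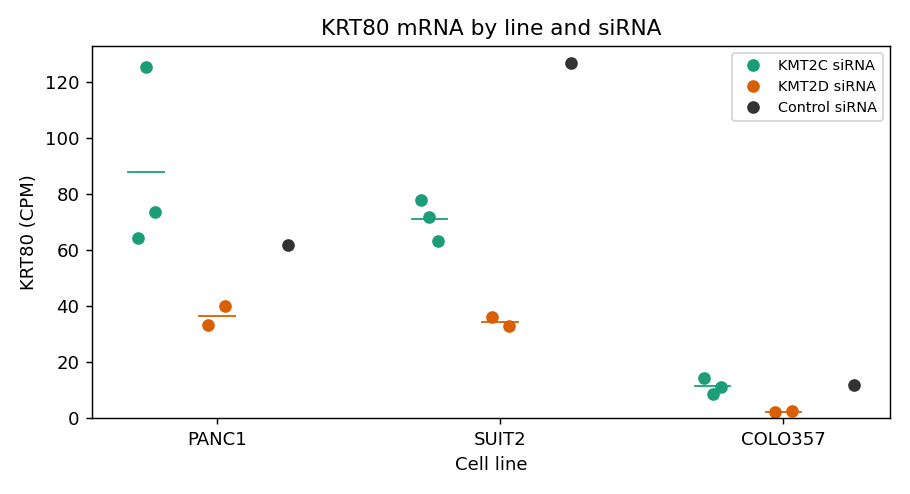
KRT80 level in CPM by cell line and siRNA target; points are libraries and short lines the mean of 3 KMT2C or 2 KMT2D libraries, with 1 control library a line. The KMT2D points lie below the control and KMT2C points in each line; in SUIT2 the control library, at 126.7 CPM, lies above all others.

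No other member passed the threshold between KMT2D siRNA and control over the 3 lines. By edgeR 0 of the 9 other members were called, where 1.2% of all genes were, 2 of the 9 (KRT7 and KRT16) had an unadjusted p under 0.05, as 12.6% of all genes did, and DESeq2 called 0. KRT7 was at -0.53 (SE 0.244, adjusted p = 0.37) and KRT16 at 1.62 (SE 0.745, adjusted p = 0.372). KRT8, KRT18 and KRT19 were at -0.14, -0.17 and -0.16 (adjusted p = 0.843, 0.781 and 0.876), with 5 of 6 libraries under control for each.

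The KMT2D siRNAs were then taken one at a time, in 1 fit over the 3 lines. With siRNA1, which called 4.02% of all genes, KRT7 fell, with a log2 fold change of -0.96 (SE 0.235, adjusted p = 0.0221). Its level was 1.89 CPM with KMT2D siRNA1, against 2.87 CPM in control in PANC1, 95.8 against 318 CPM in SUIT2, and 552 against 669 CPM in COLO357. With siRNA2, which called 8.92% of all genes, KRT7 was at -0.23 (SE 0.229, adjusted p = 0.62), with 2.83, 179 and 772 CPM in PANC1, SUIT2 and COLO357. The KRT7 call with siRNA1 was lost without the SUIT2 control library (-0.60, adjusted p = 0.232), without SUIT2 KMT2D siRNA1 (-0.71, adjusted p = 0.232) and without PANC1 KMT2D siRNA1 (-1.004, adjusted p = 0.0503).

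KRT16 rose with KMT2D siRNA2 by 2.48 (SE 0.523, adjusted p = 0.0033) and not detectably with siRNA1 (0.01, SE 0.448, adjusted p = 0.995). The reads behind this lie in COLO357, with 431 reads or 18 CPM with siRNA2 and 4.54 CPM with siRNA1, against 82 reads or 3.86 CPM in control. SUIT2 had 10 reads with siRNA2, against 2 in control, and PANC1 had 2 reads with siRNA2, against 0 in control. Without the COLO357 control library the call was lost (1.90, adjusted p = 0.314). KRT17 is next to KRT16 on chromosome 17, matches it at 38 of the 42 bases that start at the motif, and shares no 100-base word with it. KRT17 was at 860 CPM with siRNA2 and 505 CPM with siRNA1 in COLO357, against 421 CPM in control.

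Set against each other, in a contrast added after the siRNA values were seen, KMT2D siRNA2 and siRNA1 differed in 11.3% of all genes. KRT16 was higher with siRNA2 by 2.47 (SE 0.506, adjusted p = 0.00202), and this call held in 18 of 18 fits that left out a library. Without COLO357 KMT2D siRNA2 it rests on 10 reads in SUIT2 and 2 in PANC1 with siRNA2, against 0 with siRNA1 in each. KRT7 was higher with siRNA2 by 0.73 (SE 0.235, adjusted p = 0.0489), a call kept in 8 of those 18 fits. KRT80 was picked for its low level in these libraries, so only its values are given. It had 40.1 CPM with siRNA2 against 33.3 CPM with siRNA1 in PANC1, 32.9 against 36.1 CPM in SUIT2 and 2.51 against 2.27 CPM in COLO357.

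With KMT2C siRNA the simple-epithelial keratins lay mostly below control without passing the test. KRT19 was under control in 8 of 9 libraries (median 63.9% of control, range 29.3% to 105%), KRT8 in 7 of 9 (median 84.8%, range 40.4% to 106.5%) and KRT18 in 7 of 9 (median 86.4%, range 41.9% to 109%). The edgeR log2 differences were -0.62 for KRT19 (SE 0.261, adjusted p = 0.481), -0.42 for KRT8 (SE 0.189, adjusted p = 0.504) and -0.43 for KRT18 (SE 0.182, adjusted p = 0.474). Of the 10 members 0 were called by edgeR, where 0.281% of all genes were. These 3 had an unadjusted p under 0.05, as did 9.18% of all genes, and DESeq2 called 0. Without the 4 doubted libraries the values were -0.55, -0.41 and -0.35 (adjusted p = 0.788, 0.746 and 0.793). With no filter on low counts KRT19 passed at -0.64 (adjusted p = 0.0118).

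**Figure D4:**
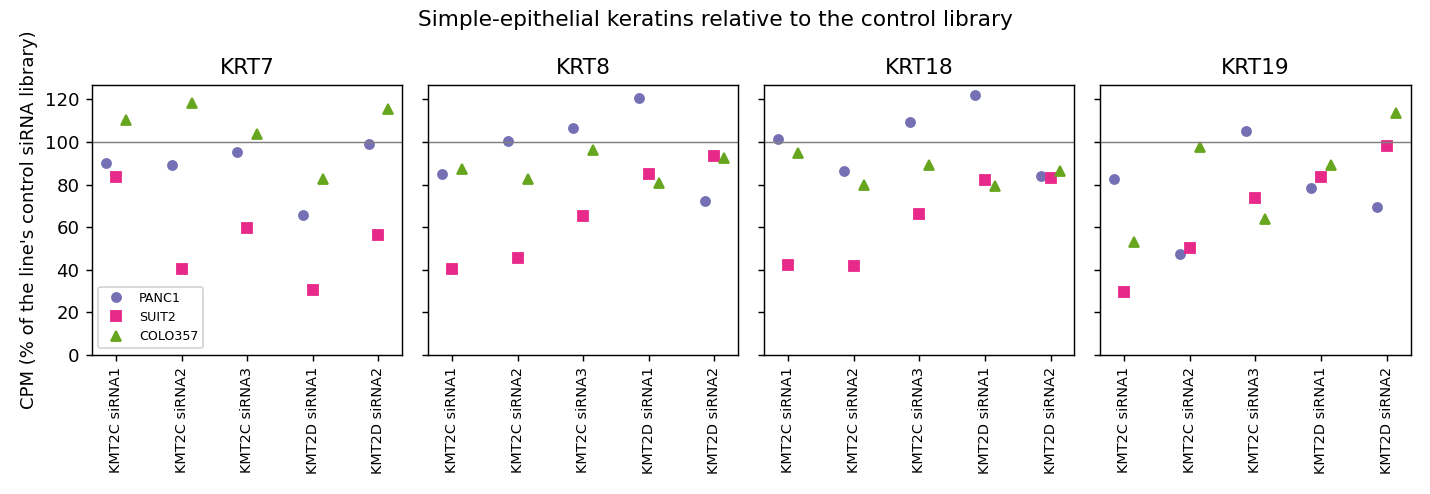
Level of KRT7, KRT8, KRT18 and KRT19 with each siRNA as a percentage of the control library of the same line; each point is 1 library and the grey line marks 100%. The SUIT2 points (squares) of KRT8, KRT18 and KRT19 lie lowest or next to lowest with each KMT2C siRNA, from 29.3% to 73.6%.

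The lowest values were in SUIT2. KRT8 there had 1269, 1433 and 2046 CPM with KMT2C siRNA1, siRNA2 and siRNA3, against 3142 CPM in control. KRT18 had 431, 430 and 680 CPM with KMT2C siRNA, against 1027 CPM in control, and KRT19 had 489, 835 and 1229 CPM with KMT2C siRNA, against 1669 CPM in control. All 3 KMT2C libraries were below the control and below both KMT2D libraries for each gene. SUIT2 KMT2C siRNA2 and siRNA3 are among the 4 doubted libraries, and siRNA1, which is not, stood at 40.4% of control for KRT8, 41.9% for KRT18 and 29.3% for KRT19. Within SUIT2 the differences were -0.97 for KRT8 (SE 0.284, adjusted p = 0.563), -0.98 for KRT18 (SE 0.279, adjusted p = 0.551) and -0.96 for KRT19 (SE 0.453, adjusted p = 0.942), and edgeR called 0.00476% of all genes. The SUIT2 control library was the highest of the 6 SUIT2 libraries for 5 of the 10 members (KRT7, KRT8, KRT18, KRT19 and KRT80), so the within-line differences of these genes all rest on it. Over the same 3 genes the KMT2C libraries stood at 47.5% to 109% of control in PANC1 and at 53.0% to 97.7% in COLO357.

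The effect of each siRNA target was also compared between lines in 1 interaction test per target. For KMT2D 0 genes were called (0%), with 2.26% of genes at an unadjusted p under 0.05, and for KMT2C 0 genes (0%), with 2.23%. KRT81 had an unadjusted p under 0.05 in both tests, with 0 reads in the SUIT2 control library and 2 to 8 reads in each other SUIT2 library. No difference in response between lines passed for any tested member, KRT80 under KMT2C siRNA included.

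By single KMT2C siRNA edgeR called 0 members, with 3, 3 and 1 at an unadjusted p under 0.05 for siRNA1, siRNA2 and siRNA3, as were 11.2%, 19.6% and 10.5% of all genes. KMT2C siRNA1 called 1.2% of all genes, siRNA2 5.81% and siRNA3 0.623%. KRT19 was at -0.93 with siRNA1 (SE 0.337, adjusted p = 0.276), -0.69 with siRNA2 (SE 0.336, adjusted p = 0.283) and -0.31 with siRNA3 (SE 0.333, adjusted p = 0.801). KRT18 came nearest the threshold with siRNA2, at -0.64 (SE 0.21, adjusted p = 0.0777).

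KMT2C and KMT2D siRNA were also compared directly, and the control libraries enter both of the contrasts above. By edgeR 0 of the 9 members other than KRT80 were called, where 5.17% of all genes were. KRT16 and KRT19 had an unadjusted p under 0.05, as did 22.1% of all genes, and DESeq2 called 0. KRT19 was at -0.45 (SE 0.212, adjusted p = 0.215) and KRT16 at -1.15 (SE 0.504, adjusted p = 0.185). Without the 4 doubted libraries they were at -0.39 (adjusted p = 0.468) and -1.24 (adjusted p = 0.329). With no filter on low counts both passed (adjusted p = 0.00673 for KRT19 and 0.0185 for KRT16), and KRT16 passed without COLO357 KMT2D siRNA1 (-1.73, adjusted p = 0.0470).

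KRT8 and KRT18 moved together from library to library. Centred within each line, their log2 CPM had a Pearson r of 0.941 and a Spearman rho of 0.864 over 18 libraries, and r was 0.887 without the 2 libraries farthest from the median of KRT8. Within lines r was 0.756 in PANC1, 0.988 in SUIT2 and 0.78 in COLO357, 6 libraries each, and without the 2 farthest it was 0.063, 0.95 and 0.411. The relation therefore rests on SUIT2 more than on the other lines. The genes are neighbours on opposite strands of chromosome 12, share 8.39% of KRT18 words with both strands matched, and are read from the same libraries. KRT8 and KRT19 gave 0.675 and KRT18 and KRT19 0.693 over all lines, with -0.32 for KRT18 and KRT19 in COLO357. KRT8 CPM was 1.995 to 2.77 times that of KRT18 in PANC1, 2.95 to 3.44 times in SUIT2 and 2.70 to 3.17 times in COLO357, ratios that carry the gene lengths and are compared only between lines.

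**Figure D5:**
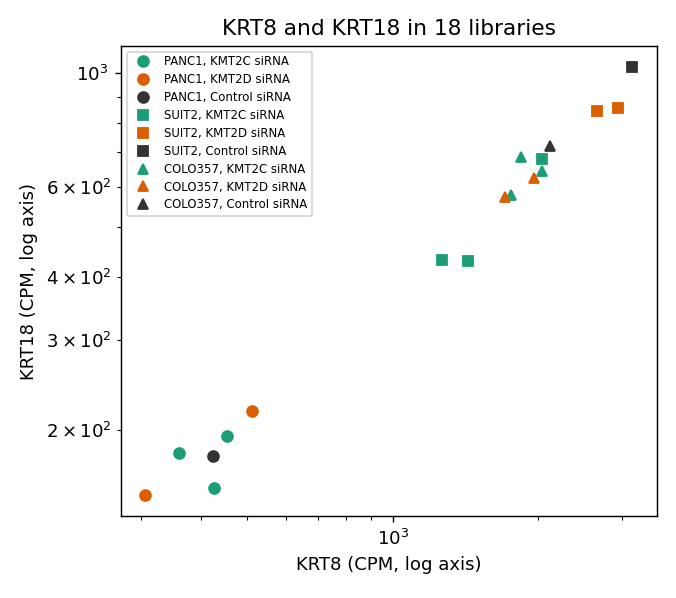
KRT18 against KRT8 in the 18 libraries, in CPM on log axes; shapes mark lines and colours siRNA targets. PANC1 libraries lie at the lower left, and the SUIT2 libraries spread along the diagonal, 2 KMT2C libraries lowest (1269 and 1433 CPM KRT8) and the control highest (3142 CPM).

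Reads were also assigned to processed pseudogenes of this pair. The 51 KRT8 pseudogenes summed to 17.7% to 21.7% of KRT8 CPM in PANC1, 15.5% to 22.9% in SUIT2 and 20.6% to 24.5% in COLO357. The 67 KRT18 pseudogenes summed to 16.9% to 26.7% of KRT18 CPM over the 18 libraries. Their line-centred sums followed the parent genes with r of 0.942 for KRT8 and 0.864 for KRT18. Of 137 keratin pseudogenes 33 were tested, and 2 were higher and 25 lower in PANC1 than in COLO357, where 32.1% and 34.7% of all genes were.

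The 5 genes whose line-centred log2 CPM followed KRT80 most closely over 18 libraries, among 11580 protein-coding candidates, were POLR3A (r = 0.866), ATP11A (0.86), PIK3CB (0.859), POLE (0.851) and CDC25B (0.849). Within each line these r lay between 0.803 and 0.942. The 5 were picked as the highest r over these same libraries, so the r within lines are not separate support. The libraries include those with KMT2D siRNA, on which KRT80 itself was picked. For KRT19 the 5 were PCYT2, FABP6, PAFAH2, ASS1 and SDC1 (r from 0.782 to 0.852). For KRT81 they were PDE10A, ZMPSTE24, SYCP2, KIZ and CCDC171 (r from 0.741 to 0.855), and ZMPSTE24 and CCDC171 had negative r within COLO357 (-0.594 and -0.393), the line with most KRT81 reads.

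Of 45 other protein-coding keratin genes 10 passed the filter on low counts. KRT5, the type II keratin of basal cells, was at 0 to 0.903 CPM in PANC1 and 0 to 1.69 CPM in SUIT2, against 886 to 1895 CPM in COLO357. KRT10, a keratin of differentiating epidermis, was at 30.3 to 45.1 CPM in PANC1, 9.003 to 16.5 CPM in SUIT2 and 65.3 to 78.9 CPM in COLO357, and KRT13 was at most at 0.0808 CPM in PANC1 and 0.189 CPM in SUIT2, against 4.75 to 10.7 CPM in COLO357. The 10 members held 95.5% to 97.2% of all keratin CPM in PANC1, 99.4% to 99.8% in SUIT2 and 72.9% to 85.0% in COLO357, where KRT5 made most of the rest. By edgeR 0 of these 10 were called against control with either target, with 1 at an unadjusted p under 0.05 for KMT2D and 2 for KMT2C. Between KMT2C and KMT2D siRNA 1 of these 10 other keratins was called, where 5.17% of all genes were. This was KRT4, a keratin of mucosal lining, at no more than 5.68 CPM in any library. It was lower with KMT2C siRNA by -2.49 (SE 0.384, adjusted p = 0.00179 by edgeR), and by -2.75 (adjusted p = 0.00708) without the 4 doubted libraries.

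Genes of the keratin network were counted in the same contrasts. Of 22 tested desmosome and keratin-partner genes, 3 were higher and 13 lower in PANC1 than in COLO357 (median -0.75, beside -0.064 over all genes), where 32.1% and 34.7% of all genes were. In SUIT2 against COLO357 9 were higher and 8 lower (median 0.14, beside -0.0098), where 28.8% and 30.9% of all genes were. By edgeR 0 were called against control with either target, with 2 at an unadjusted p under 0.05 for KMT2D and 1 for KMT2C. Between KMT2C and KMT2D siRNA 1 of the 22 was called, where 5.17% of all genes were. This was SFN, whose product binds KRT17 in mouse keratinocytes. It was higher with KMT2C siRNA by 0.91 (SE 0.175, adjusted p = 0.00653 by edgeR), and by 0.98 (adjusted p = 0.0216) without the 4 doubted libraries. Of 26 tested transcription factors of keratin or epithelial genes, 5 were higher and 17 lower in PANC1 than in COLO357 (median -1.61), and 9 were higher and 8 lower in SUIT2 than in COLO357 (median -0.16), beside the same shares of all genes. TP63, the basal-cell regulator of KRT5, was at most at 0.224 CPM in PANC1 and 0.305 CPM in SUIT2, against 41.0 to 106 CPM in COLO357. KLF5 was at 1.49 to 3.28 CPM in PANC1, 190.1 to 566 CPM in SUIT2 and 337.5 to 778 CPM in COLO357. Other factors ran the other way, among them JUN, at 132.5 to 205 CPM in PANC1 and 26.2 to 70.7 CPM in COLO357. FOSL1 was at 35.9 to 123.6 CPM in PANC1 and 5.97 to 29.8 CPM in COLO357, and GRHL3 at 14.8 to 31.1 CPM and 0.883 to 5.44 CPM. GRHL2 was at most at 0.0809 CPM in PANC1 and 0.168 CPM in COLO357, against 53.8 to 149 CPM in SUIT2. Of the 26 factors 1 was higher and 1 lower with KMT2C than with KMT2D siRNA, where 5.17% of all genes were called. TP63 was the lower one, by -1.17 (SE 0.301, adjusted p = 0.0288 by edgeR), a call lost without the 4 doubted libraries (-1.16, adjusted p = 0.134). The calls of KRT4, SFN and TP63 take libraries with different siRNAs of a target as replicates. Their values with siRNA as a random effect are not given here.

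The labelled cell type was checked against marker lists. Epithelial markers (12 genes) summed to 401 to 515 CPM in PANC1, 1411 to 2433 CPM in SUIT2 and 1556 to 1954 CPM in COLO357. Of the 12, 1 was higher and 9 lower in PANC1 than in COLO357, where 32.1% and 34.7% of all genes were. In PANC1 ESRP1, RAB25 and MAL2 were at most 0.241 CPM, and RAB25 was at most 0.126 CPM in COLO357 as well. SPINT2 ran the other way, at 317 to 426 CPM in PANC1, 127 to 228 CPM in SUIT2 and 246 to 384 CPM in COLO357. Of 10 mesenchymal markers 6 were higher and 4 lower in PANC1 than in COLO357, beside the same shares of all genes. VIM, the filament gene of mesenchymal cells, was at 1301 to 2451 CPM in PANC1, 205 to 787 CPM in SUIT2 and 33.1 to 117 CPM in COLO357, whereas SNAI2 of the same list was at 0.0311 to 0.556 CPM in PANC1, 2.97 to 11.9 CPM in SUIT2 and 22.6 to 63.1 CPM in COLO357. Squamous or basal markers (10 genes) summed to 75.7 to 184 CPM in PANC1, 361 to 682.5 CPM in SUIT2 and 1864 to 3152 CPM in COLO357. Of the 8 tested genes of that list 1, SERPINB5, was called with KMT2D siRNA against control, where 1.2% of all genes were. It was higher by 1.20 (SE 0.299, adjusted p = 0.0473 by edgeR), and was at most at 0.0804 CPM in PANC1. This call too takes libraries with different siRNAs as replicates. It is not given with siRNA as a random effect or without single libraries. The 7 matched pancreatic duct markers, among them KRT7 and KRT19, summed to 272 to 567 CPM in PANC1, 1107 to 2258 CPM in SUIT2 and 2007 to 3452 CPM in COLO357. Of these CFTR was at 0 reads in PANC1, at least 6.54 CPM in SUIT2 and at most 0.349 CPM in COLO357. SPP1 was at most 0.778 CPM in PANC1 and at 13.4 to 26.4 CPM in SUIT2 and 367 to 1168 CPM in COLO357. SOX9 was at 33.7 to 126 CPM in PANC1, 17.2 to 78.6 CPM in SUIT2 and 7.63 to 42.2 CPM in COLO357. Acinar, endocrine and leukocyte lists summed to at most 10.1 CPM in any library, and the endothelial list to at most 28.9 CPM, nearly all of it CDH5 in COLO357. Fibroblast markers summed to 51.6 to 171 CPM in PANC1, 1.22 to 5.56 CPM in SUIT2 and 23.5 to 152.7 CPM in COLO357, most of it COL1A1.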

How the data were processed

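Per the labels' protocols, rRNA-depleted stranded total RNA libraries were sequenced as 100-nt pairs over 7 lanes. The authors deposited 1 table of raw read counts per gene for each library, and the submitters' processing notes name FastQC, TopHat2, HTSeq, edgeR and hg19. Neither the labels nor the headers give the annotation release or the strand setting. The 5 closing entries that name no gene held 33.0% to 53.4% of counts and were left out. Symbols for 52526 identifiers (82.5%) came from GENCODE 29 on GRCh38, so no coordinates are given.

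From the deposited counts, CPM used the sum over genes. Tests used edgeR 4.0.16 (R 4.3.3; TMM, quasi-likelihood, line and target as terms, filterByExpr with minimum count 10, 21028 genes, adjusted p under 0.05), separately fitted by siRNA and by line. It was tested on simulated data. DESeq2 1.42.0 and limma 3.58.1 were alternatives. Gene names followed a rule: all members, the 5 most like KRT80, KRT81 and KRT19, and up to 6 called or most abundant genes per list. Some genes that ran against their list were named as well. Members, lists and tests were chosen with earlier results of these data known. Percentages of control needed 30 reads in the control library. Libraries that share a line and target, which differ in siRNA, differed beyond sampling noise.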

Additional observations from a re-analysis of the deposited data

Results flagged for a closer look

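Of the 44 groups of 4 to 10 libraries tested for 1 library far from the rest, 7 were flagged. The nominal rate of the test is about 1 in 20, which need not hold for genes at a few reads. In COLO357 the KMT2D siRNA2 library stood apart for KRT16, at 18 CPM with the other COLO357 libraries at 3.86 to 8.15 CPM, and for KRT17, at 859.7 CPM with the others at 421 to 540.3 CPM. The SUIT2 KMT2D siRNA2 library was the high one for KRT16 in that line as well, at 0.435 CPM, with the others at 0 to 0.0938 CPM, a difference of a few reads. In PANC1 the KMT2D siRNA1 library was low for KRT7, at 1.89 CPM with the others at 2.56 to 2.87 CPM. The same library had KRT18 at 122.2% of control, where the other 5 KMT2D siRNA libraries lay at 79.4% to 86.3%. The PANC1 KMT2C siRNA2 library had KRT80 at 202.9% of control, where the other 8 KMT2C siRNA libraries lay at 49.9% to 122%. KRT6A in SUIT2 was highest with KMT2C siRNA2, at 0.211 CPM with the others at 0 to 0.0655 CPM, which is 3 reads. No difference between lines in the response of a member passed the interaction test.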

How the results depend on the processing

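Member calls between lines were kept in each of the 18 fits that left out a library. For KRT6A, KRT16 and KRT17 against COLO357, and for KRT81 in contrasts with SUIT2, this follows from the few reads on the low side. It is no support for those calls. Of the member fold changes under the alternatives 1361 kept direction and side of the threshold, while 47 changed sign, 12 gained a call and 14 lost one. Genes called for KMT2D against control numbered 253, but 660 with DESeq2, 657 with no filter, 77 with limma-voom that takes siRNA as a random effect, and 36 to 320 over fits without 1 library (36 without the SUIT2, 80 without the PANC1 and 138 without the COLO357 control). For KMT2C against control 59 became 217, 270, 26 and 7 to 74 (7 without the SUIT2 and 13 without the PANC1 control), and 29 without the 4 doubted libraries. For KMT2C against KMT2D 1087 became 1939, 1762, 288 and 672 to 1225, and 242 without those 4. With no filter 1 member was called for KMT2C against control (KRT19) and 2 for KMT2C against KMT2D (KRT16 and KRT19), and without 1 library 0 to 1. KRT6A changed sign with DESeq2 to -0.40, -0.61 and -0.29 (KMT2D against control, KMT2C against control, PANC1 against SUIT2) and to -0.0103 without the 4 doubted libraries; KRT17 went to -0.15 with DESeq2 (KMT2D) and 0.23 with limma-voom and siRNA as a random effect (KMT2C); KRT16 with KMT2D siRNA1 went to -0.012 with RLE. Signs also changed without 1 library, with these ranges. For KMT2D against control they were -1.08 to 1.34 for KRT6A, -0.24 to 0.036 for KRT8, -0.15 to 0.26 for KRT15, -0.28 to 0.91 for KRT17, -0.30 to 0.0271 for KRT18 and -0.18 to 0.38 for KRT81. For KMT2C against control they were -1.55 to 0.93 for KRT6A, -0.51 to 0.0306 for KRT7, -0.0198 to 0.64 for KRT16, -0.77 to 0.43 for KRT17, -0.51 to 0.0648 for KRT80 and -0.0324 to 0.53 for KRT81. They were -0.0571 to 0.19 for KRT19 in SUIT2 against COLO357, and -1.15 to 1.21 for KRT6A and -0.0408 to 0.25 for KRT80 in PANC1 against SUIT2. KRT6A had 7 reads in all PANC1 libraries together and 5 in all SUIT2 libraries, so its sign between these lines is not a result. By siRNA the ranges were -2.76 to 0.13 for KRT16 with KMT2D siRNA1 and -0.47 to 0.13 for KRT7 with siRNA2. The causes were not tested. Without dividing by length the type II to type I ratio was 0.778 in PANC1, 1.27 in SUIT2 and 1.38 in COLO357, and per kb of coding length 0.634 in PANC1 and 1.03 in SUIT2. With siRNA number as a replicate block 1135 genes were called between KMT2C and KMT2D siRNA, and 0 members; the numbers do not pair the libraries (r between -0.112 and 0.112). KRT6A, KRT16, KRT17 and KRT81 had too few reads in PANC1 and SUIT2 for siRNA effects there to be judged.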
